A study of Mus musculus with 2 samples.

Results

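Cluster 10 (C10), annotated as G2M cDC2, is a group of splenic conventional dendritic cells in which transcripts of mitosis were far above their level in the non-cycling cluster C0, while those of DNA synthesis were far below their level in the cycling cluster C7. Its members are the cells that carry the value 10 in the deposited cluster column made at resolution 0.5, and there were 589 of them among 24343 cells (2.42%, 95% binomial interval 2.23 to 2.62). The WT library held 243 C10 cells among 12224 (1.99%, 1.75 to 2.25), and the Batf3-/- library held 346 among 12119 (2.86%, 2.57 to 3.17). Each genotype was represented by 1 library, so no difference between genotypes could be tested, and every interval here covers counting error only.

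The cells were live MHCII+ CD11c+ splenocytes sorted after depletion of T and B cells from 8-week-old female C57BL/6 mice, either WT or lacking Batf3 (Batf3-/-). Per the study's methods, the WT mice came from the Animal Resources Centre. The Batf3-/- mice were bought from Jackson Laboratories and then bred in house, so the source of the mice goes with genotype. Spleens of several mice were pooled into each library, and the sequencing experiment was done once. RNA and antibody-derived tags were read from the same droplets (CITE-seq) and counted as unique molecular identifiers (UMIs), with 122530000 RNA UMIs in the WT library and 114517000 in the Batf3-/- library, both rounded to the nearest 1000, and medians of 8374.5 and 8516 per cell. Of the cell barcodes, 56 occurred in both libraries, and 6 of those cells were in C10.

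Conventional dendritic cells present antigen to T cells, and the cDC2 branch, marked by CD11b and CD172a, is specialised in presentation on MHC class II. These cells are renewed from dividing precursors and can also divide within the spleen. In a dividing cell the genes for DNA replication are active in S phase, the genes that build the spindle, the kinetochore and the mitotic cyclins follow in G2 and M, and the anaphase promoting complex then destroys many of the mitotic proteins so that the daughters return to G1. C10 is described against 2 clusters of the same cDC2a branch, C7 (1054 cells), which is also cycling, and C0 (6137 cells), which is largely in G1. The other cycling cDC2a cluster, C5, enters only in the shares of cells.

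The label was checked against its own markers. Cenpf, which encodes a kinetochore and nuclear matrix protein of G2 and M, was measured at 735 CPM (the summed UMIs of a gene per 1000000 UMIs of the cluster) in the WT C10 cells and 605 CPM in the Batf3-/- C10 cells. In C7 it stood at 276 and 231 CPM, and in C0 at 3.81 and 5.62 CPM, so the levels of the 3 clusters did not overlap between libraries. Cd7, the surface immunoglobulin-family protein that marks cDC2a, was measured at 469 and 419 CPM in C10, against 266 and 238 CPM in C7 and 400 and 367 CPM in C0. Because the clusters had been formed from these same transcripts, all differences between clusters are descriptions, without a test.

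The deposited phase calls placed 505 of the 589 C10 cells in G2M (85.7%, 82.7 to 88.5), 76 in G1 (12.9%) and 8 in S (1.36%). In the WT library 217 of 243 C10 cells were called G2M (89.3%, 84.7 to 92.9), and in the Batf3-/- library 288 of 346 (83.2%, 78.9 to 87.0). C7 was composed of 651 G2M and 403 S cells with 0 in G1, whereas C0 held 5612 G1, 443 S and 82 G2M cells. The per-cell S score, the mean level of S phase genes over that of control genes, had a median of -0.090 in C10, close to the -0.070 of C0 and far from the 0.445 of C7. The G2M score, built in the same way, had a median of 0.455 in C10 (quartiles 0.095 to 0.848), against 0.618 in C7 and -0.092 in C0. Of the 3 clusters, C10 thus combined a raised G2M score with an S score at the resting level.

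**Figure D1:**
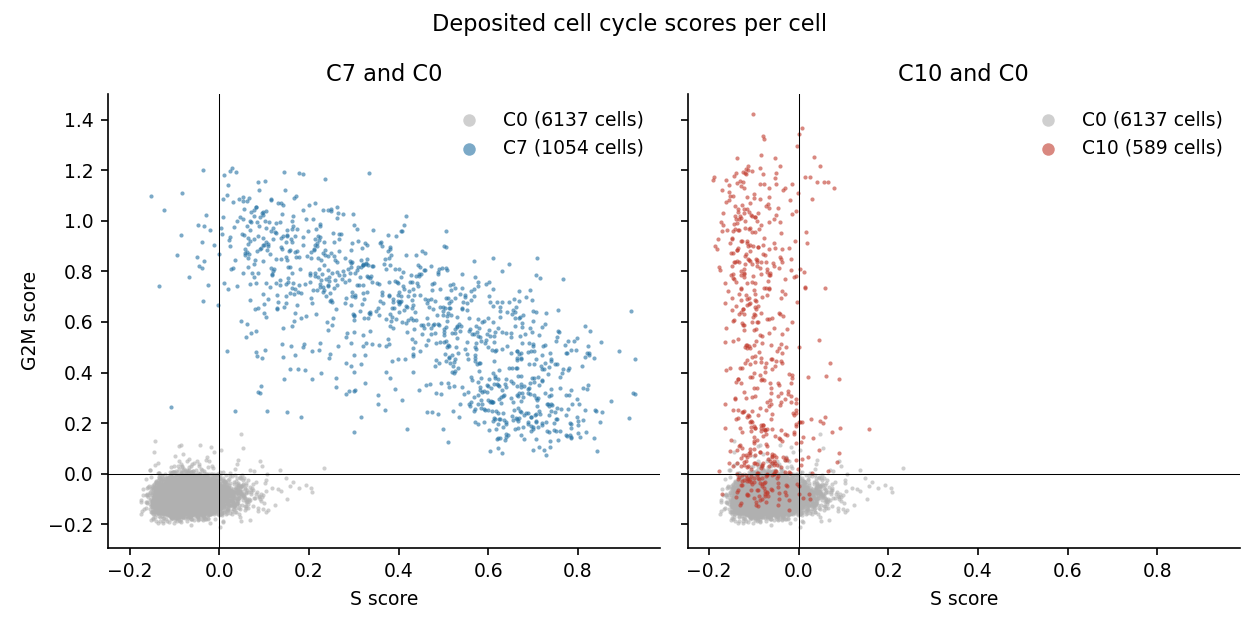
Deposited S score (x axis) against G2M score (y axis), both without units, 1 point per cell, for C7 (left, blue) and C10 (right, red) with C0 in grey. C7 cells reach high values of both scores (medians 0.445 and 0.618), while C10 cells extend upwards only, with no S score above 0.157.

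Depth differed between the clusters. C10 cells held a median of 8861 UMIs and 2793 genes, between C0 (6871 UMIs, 2214 genes) and C7 (14016.5 UMIs, 3622 genes). The range within C10 was wide, from 848 to 28450 UMIs, with 140 cells above the C7 median and 118 below the C0 median. Mitochondrial transcripts took a median of 3.97% of UMIs in C10, 3.95% in C7 and 4.55% in C0. A doublet caller (Scrublet) marked 8 WT and 6 Batf3-/- cells of C10. The deposited reference-based annotation (SingleR) named 583 of the 589 cells dendritic cells (99.0%) and 6 monocytes. At its finer level 551 cells (93.5%) were given the reference type DC.8-4-11B-, whose name denotes dendritic cells without CD8, CD4 and CD11b.

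The levels of C10 were first compared with those of C7, which shares the cycling state. A gene was counted as higher or lower when its CPM differed by at least 2-fold in each library, and only genes whose level, averaged over both clusters, reached a floor of 50 CPM were compared. By this rule 32 of 2932 genes were higher in C10 (1.09%) and 143 were lower (4.88%). Of the 32 higher genes 12 belonged to the cell cycle lists: Cdc20, Ccnb1, Ccnb2, Cdkn3, Cenpa, Cenpe, Cenpf, Aspm, Kif20a, Cep55 and Hmmr, which act in G2, in mitosis or at its completion, and the histone gene Hist1h2bc. Of the 143 lower genes 68 belonged to the cycle lists.

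Cdc20, the activator that turns the anaphase promoting complex on its mitotic targets, was measured at 395 CPM in WT and 331 CPM in Batf3-/- C10 cells, against 88.5 and 80.2 CPM in C7. Over both libraries this was 4.25-fold, a log2 ratio of 2.09 (95% counting interval 1.99 to 2.19). Ccnb1, cyclin B1, which drives entry into mitosis with Cdk1, was measured at 250 and 232 CPM in C10 and at 68.6 and 61.1 CPM in C7. Its level was 3.72-fold higher, a log2 ratio of 1.89 (1.78 to 2.01). For both genes the 2 libraries of a cluster lay much closer to each other than the clusters did.

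Ccnb2, the companion B-type cyclin, was at 574 and 539 CPM in C10 and 194 and 183 CPM in C7 (log2 ratio 1.56, 1.48 to 1.63). Cenpa, the histone H3 variant that defines the centromere, was at 728 and 657 CPM against 245 and 213 CPM (log2 ratio 1.59). Cdkn3, a phosphatase that acts on cyclin-dependent kinases, was at 199 and 182 CPM against 66.6 and 57.5 CPM (log2 ratio 1.62). These 3 genes were again separated between clusters in each library. The motor Cenpe (log2 ratio 1.38), which links kinetochores to microtubules, Aspm of the spindle pole (1.34), the kinesin Kif20a (1.21) and Cep55 (1.17), both needed for cytokinesis, and the hyaluronan receptor and spindle protein Hmmr (1.11) completed the group, with Cenpf at 1.39 (1.32 to 1.45).

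**Figure D2:**
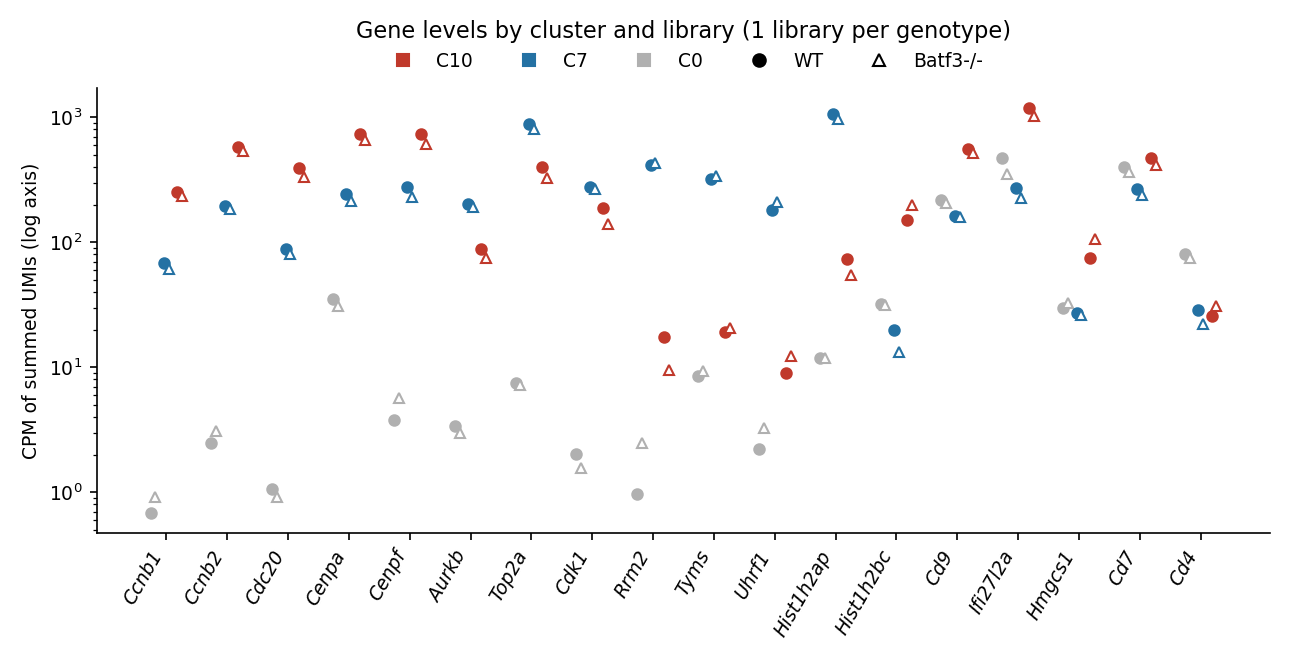
CPM of summed UMIs (y axis, log scale) for 18 genes in C10 (red), C7 (blue) and C0 (grey), with filled circles for the WT and open triangles for the Batf3-/- library, 1 value each. The mitotic genes at the left stand highest in C10 (Cdc20 395 and 331 CPM), the replication genes in the middle stand highest in C7 (Rrm2 417 and 434 CPM), and Hist1h2bc is separate from Hist1h2ap.

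Not every mitotic gene followed this order. Ube2c, the ubiquitin-conjugating enzyme of the anaphase promoting complex, was at 1032 and 836 CPM in C10 and 507 and 451 CPM in C7, a log2 ratio of 0.94 that did not reach 2-fold in each library. The mitotic kinase gene Plk1 had a log2 ratio of 0.59, and Birc5, which encodes the passenger complex protein survivin, of 0.18. Cdk1 was lower in C10, at 186 and 141 CPM against 277 and 267 CPM (log2 ratio -0.77), and so was Ccna2, cyclin A2, at 159 and 147 against 197 and 195 CPM (-0.37), both short of 2-fold. Aurkb, the kinase of the passenger complex, reached it with 88.3 and 74.5 CPM in C10 against 204 and 190 CPM in C7 (-1.30). Top2a, the topoisomerase that untangles sister chromatids, was also lower, at 403 and 329 CPM against 875 and 812 CPM (-1.23). Cyclin A2 and Aurkb were thus lower in the same cluster in which the B-type cyclins and Cdc20 were higher.

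The complete lists showed the same split. Of the 54 genes that define the G2M score, 45 were at or above the floor of 50 CPM, with 6 higher in C10 than in C7, 4 lower (Aurkb, Top2a, the kinetochore gene Ndc80 and the heterochromatin gene Cbx5) and a median log2 ratio of 0.12, against 0.10 over all 2932 genes. That median was -0.10 when levels were averaged over cells instead of summed. The summed level of the list was 16724 CPM in C10, 15150 CPM in C7 and 1360 CPM in C0. Of the 31 kinetochore and centromere genes 16 were at the floor, 3 of them higher (Cenpa, Cenpe and Cenpf) and 6 lower, with a median of -0.44. All 31 had at least 20 UMIs, of which 25 were below C7 in each library and 5 above. Of these, 13 were at least 2-fold lower and 3 higher, and the median over all 31 was -0.81. Among the 31 spindle and kinesin genes 24 were at the floor, with 3 higher and 4 lower, and among the 12 cytokinesis genes 8 were, with 2 higher and 0 lower. All 17 condensin and mitotic chromatin genes were at the floor, with 0 higher, 6 lower and a median of -0.81. Among them Ncapg2, a condensin II subunit, had a log2 ratio of -3.50, from 114 and 106 CPM in C7 to 9.0 and 10.1 CPM in C10. The tubulins divided as well, with Tuba1b at a log2 ratio of -2.05, Tubb5 at -1.22 and Tubb4b at 0.53.

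Genes of DNA replication separated C10 from C7 most. Rrm2, the ribonucleotide reductase subunit that supplies deoxynucleotides, was measured at 17.5 and 9.54 CPM in C10 and at 417 and 434 CPM in C7, a log2 ratio of -5.07 (-5.41 to -4.75). In C0 it was at 0.96 and 2.47 CPM. Lig1, DNA ligase I, had a log2 ratio of -4.53, the remodelling helicase Hells of -4.39, Clspn of the replication checkpoint of -4.20, Uhrf1, which guides maintenance of DNA methylation, of -4.18, and Tyms, thymidylate synthase, of -4.04. Of the 40 S phase genes 20 were at the floor and all 20 were lower, with a median of -3.19. Counting every member with at least 20 UMIs, all 40 were at least 2-fold lower in each library. The same held for all 36 genes of replication licensing and the fork and for all 14 of nucleotide supply. Of all 11146 genes with at least 20 UMIs, 748 were that much lower. The S phase list is one of those used for the phase scores, so its order adds nothing to the phase calls.

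The S phase list summed to 574 CPM in C10 and 497.5 CPM in C0, against 4739 CPM in C7. Pcna, the replication clamp, stood at 26.4 and 26.0 CPM in C10 and 40.3 and 32.5 CPM in C0, below the resting level in both libraries (log2 ratio -0.48). Mcm6, of the replicative helicase, stood at 8.95 and 16.7 CPM in C10 against 20.03 and 18.9 CPM in C0 (-0.51). Of 39 members with at least 20 UMIs, 21 were above C0 in each library, 12 of them at least 2-fold, and 14 were below, 0 of them 2-fold, with a median log2 ratio of 0.25. Over all genes with at least 20 UMIs 46.1% were above and 31.2% below C0 in each library, so the shares above and below 0 were near those of all genes. The share at least 2-fold higher was not, since 783 of all 11926 genes were that much higher and 227 that much lower. Clspn, for example, was at 7.73 and 7.42 CPM in C10 and 2.06 and 2.33 CPM in C0. Pclaf, which encodes a Pcna-bound factor and is not on the list, was at 177 and 157 CPM in C10, 1120 and 1145 CPM in C7 and 2.25 and 3.38 CPM in C0.

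Most histone transcripts were lower in C10 than in C7, 50 of the 55 genes with at least 20 UMIs in each library, against 33.8% of all genes. Replication-dependent histones are made in S phase from messages that mostly lack a poly(A) tail, and several of their genes are near-identical copies, so the assignment of reads among them is uncertain. Hist1h2ap was at 73.6 and 54.9 CPM in C10 against 1069 and 968 CPM in C7 (log2 ratio -4.02), and Hist1h1b at 41.9 and 42.9 CPM against 672 and 653 CPM (-3.96). Both were above C0, with log2 ratios of 2.40 and 2.28. Hist1h2bc, in contrast, was at 149 and 199 CPM in C10, 19.7 and 13.3 CPM in C7 and 32.1 and 31.6 CPM in C0. It rested on 1116 UMIs in C10 and 240 in C7 and was 11.1-fold higher than in C7 (log2 ratio 3.47, 3.27 to 3.68), the largest ratio of the 32 higher genes, and 5.62-fold higher than in C0. The WT log2 ratio to C7 was 2.92 and the Batf3-/- ratio 3.90. Of 64 histone genes 11 were at the floor against C7, with Hist1h2bc the 1 higher, 7 lower and a median of -2.06. Against C0, 38 of the 45 histone genes with at least 20 UMIs were above 0 in each library, 25 of them at least 2-fold. Of all genes 46.1% were above C0 in each library, and 783 of 11926 were at least 2-fold higher. Against C7, 3 of 55 were above 0 in each library, Hist1h2bc, Hist4h4 (log2 ratio 0.58, 0.24 to 0.92) and Hist3h2ba (0.31, -0.02 to 0.63), of which Hist1h2bc was at least 2-fold higher in both libraries and the other two were named after their values were seen.

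The promoters of these genes are shown because the 2 groups, mitotic genes high in C10 and replication genes low in it, are known to be read through different DNA elements. The CHR element (TTTGAA or TTTAAA) together with CCAAT boxes is a feature of many G2 and M genes, and the E2F element (searched as TTTGGCGC, TTTCGCGC and TTTCCCGC, forms that can overlap each other) of many S phase genes. The windows are from RefSeq on the mouse build GRCm38.p6, hold 160 bases around the annotated start, which is counted as position 0 with negative positions upstream, and are written 5′ to 3′ on the strand of the gene. Capitals mark every match on either strand, where CCAAT on the opposite strand reads ATTGG, and TTTGAA reads TTCAAA. The first 5 are the genes of the cycle lists with the highest ratios to C7 that had a window (Hist1h2bc was not matched by symbol), Cenpf is the marker of the cluster, Rrm2 had the lowest ratio, and Hells is one of the 3 lowest, shown for its E2F match.
Cdc20 (chr4:118437319-118437478, minus strand): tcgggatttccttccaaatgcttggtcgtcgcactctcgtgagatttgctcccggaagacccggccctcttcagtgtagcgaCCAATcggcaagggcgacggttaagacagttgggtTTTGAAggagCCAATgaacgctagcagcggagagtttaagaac
Ccnb1 (chr13:100786462-100786621, minus strand): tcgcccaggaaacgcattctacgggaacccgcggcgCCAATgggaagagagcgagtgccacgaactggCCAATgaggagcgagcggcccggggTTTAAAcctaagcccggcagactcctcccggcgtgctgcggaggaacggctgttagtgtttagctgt
Ccnb2 (chr9:70421530-70421689, minus strand): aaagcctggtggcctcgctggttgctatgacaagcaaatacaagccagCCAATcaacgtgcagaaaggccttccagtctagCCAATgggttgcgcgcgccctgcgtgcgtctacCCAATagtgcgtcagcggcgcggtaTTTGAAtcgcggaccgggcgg
Cdkn3 (chr14:46760406-46760565, plus strand): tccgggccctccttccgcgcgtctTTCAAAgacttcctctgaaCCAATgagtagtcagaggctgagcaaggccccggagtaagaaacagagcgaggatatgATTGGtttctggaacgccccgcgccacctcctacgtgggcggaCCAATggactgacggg
Cenpa (chr5:30666751-30666910, plus strand): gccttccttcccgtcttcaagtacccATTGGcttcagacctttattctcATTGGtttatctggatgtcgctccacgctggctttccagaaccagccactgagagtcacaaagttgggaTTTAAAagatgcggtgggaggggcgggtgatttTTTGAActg
Cenpf (chr1:189688062-189688221, minus strand): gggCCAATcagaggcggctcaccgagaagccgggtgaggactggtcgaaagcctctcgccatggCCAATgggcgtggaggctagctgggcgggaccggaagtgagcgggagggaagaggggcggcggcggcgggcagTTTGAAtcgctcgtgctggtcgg
Rrm2 (chr12:24708119-24708278, plus strand): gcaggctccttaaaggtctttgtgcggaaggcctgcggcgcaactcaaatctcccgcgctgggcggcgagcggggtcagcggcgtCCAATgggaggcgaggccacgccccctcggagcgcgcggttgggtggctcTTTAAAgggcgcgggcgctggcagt
Hells (chr19:38930855-38931014, plus strand): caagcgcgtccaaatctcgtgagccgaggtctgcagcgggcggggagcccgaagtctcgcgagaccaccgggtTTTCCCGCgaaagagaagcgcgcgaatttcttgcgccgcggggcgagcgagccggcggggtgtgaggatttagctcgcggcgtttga

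In this stretch Cdc20 held a CHR at -18 and CCAAT at -53 and -8, Ccnb1 a CHR at -42 and CCAAT at -99 and -67, and Ccnb2 a CHR at 4 and CCAAT at -87, -54 and -21. Hells held neither but an E2F match at -62, and Rrm2, although it was the lowest in C10, held a CHR at 0 and a CCAAT at -50. In the full windows of 300 bases, 10 of the 12 cycle genes higher in C10 than in C7 had a sequence, of which 10 held a CHR, 9 a CCAAT, 9 both and 0 an E2F match. Of the 68 lower cycle genes 51 had a sequence, of which 17 held a CHR, 33 a CCAAT, 10 both and 12 an E2F match. Over all 27025 windows 27.8% held a CHR, 37.9% a CCAAT, 10.9% both and 1.91% an E2F match, and over the 2348 genes compared with C7 that had a window the shares were 20.7%, 39.5%, 8.99% and 4.94%. Over all genes called against C7, in or out of the cycle lists, 15 of the 26 higher genes with a window held a CHR, 9 a CHR and a CCAAT and 0 an E2F match, and of the 114 lower genes with a window 33 held a CHR, 20 both and 25 an E2F match. Of the G2M list 47 genes had a window, of which 37 held a CHR, 36 a CCAAT, 30 both and 2 an E2F match. Of the S phase list 28 had one, of which 6 held a CHR, 19 a CCAAT, 5 both and 11 an E2F match. Much of the contrast between higher and lower cycle genes is thus also seen between these 2 lists, whatever the level in C10. These shares were not tested. A match is a run of letters in the window and says nothing by itself about binding.

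Outside the cycle lists, which do not hold every cell cycle gene, 20 genes were higher in C10 than in C7. Ifi27l2a, an interferon-induced gene, had the largest of these ratios, at 1175 and 1022 CPM in C10, 270 and 225 CPM in C7 and 469 and 352 CPM in C0 (log2 ratio to C7 2.14, to C0 1.40). Cd9, a tetraspanin of the cell surface, was at 559 and 518 CPM in C10, 162 and 159 CPM in C7 and 219 and 206 CPM in C0 (1.73 and 1.33). Tnfrsf13b, which encodes the receptor TACI, was at 142 and 131 CPM against 46.9 and 50.2 CPM in C7 (1.48) and 84.99 and 94.6 CPM in C0. Each of these 3 genes was higher in C10 than in either other cluster in both libraries. The interferon-induced genes were counted as a list chosen after the values were seen. All 23 members had at least 20 UMIs. Against C7, 19 were above 0 in each library and 1 below, with a median log2 ratio of 0.48, and against C0, 3 were above and 16 below, with a median of -0.25. Over all genes 46.7% were above and 33.8% below C7, and 46.1% above and 31.2% below C0. Ifi27l2a alone was at least 2-fold higher than in each cluster, and the summed level was 3252 CPM in C10, 1869 CPM in C7 and 3025 CPM in C0.

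Several sterol synthesis genes were measured at higher levels in C10 than in both other clusters. Hmgcs1, which makes HMG-CoA, was at 74.9 and 105 CPM in C10, 27.2 and 26.3 CPM in C7 and 29.6 and 32.5 CPM in C0 (log2 ratios 1.81 and 1.59). Fdps, farnesyl diphosphate synthase, was at 68.4 and 95.7 CPM in C10 against 32.6 and 42.2 CPM in C7 and 32.0 and 27.2 CPM in C0 (1.16 and 1.52). The sterol list was drawn up after these values had been seen, so its counts support nothing on their own. All 23 members had at least 20 UMIs, 21 were above 0 against C7 and 23 against C0 in each library, and 9 reached 2-fold in each library in either comparison. Of all genes with at least 20 UMIs, 46.7% were above C7 and 46.1% above C0 in each library. At least 2-fold higher were 302 of 11146 genes against C7 and 783 of 11926 against C0. The summed level was 925 CPM in C10, 478 CPM in C7 and 463 CPM in C0.

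**Figure D3:**
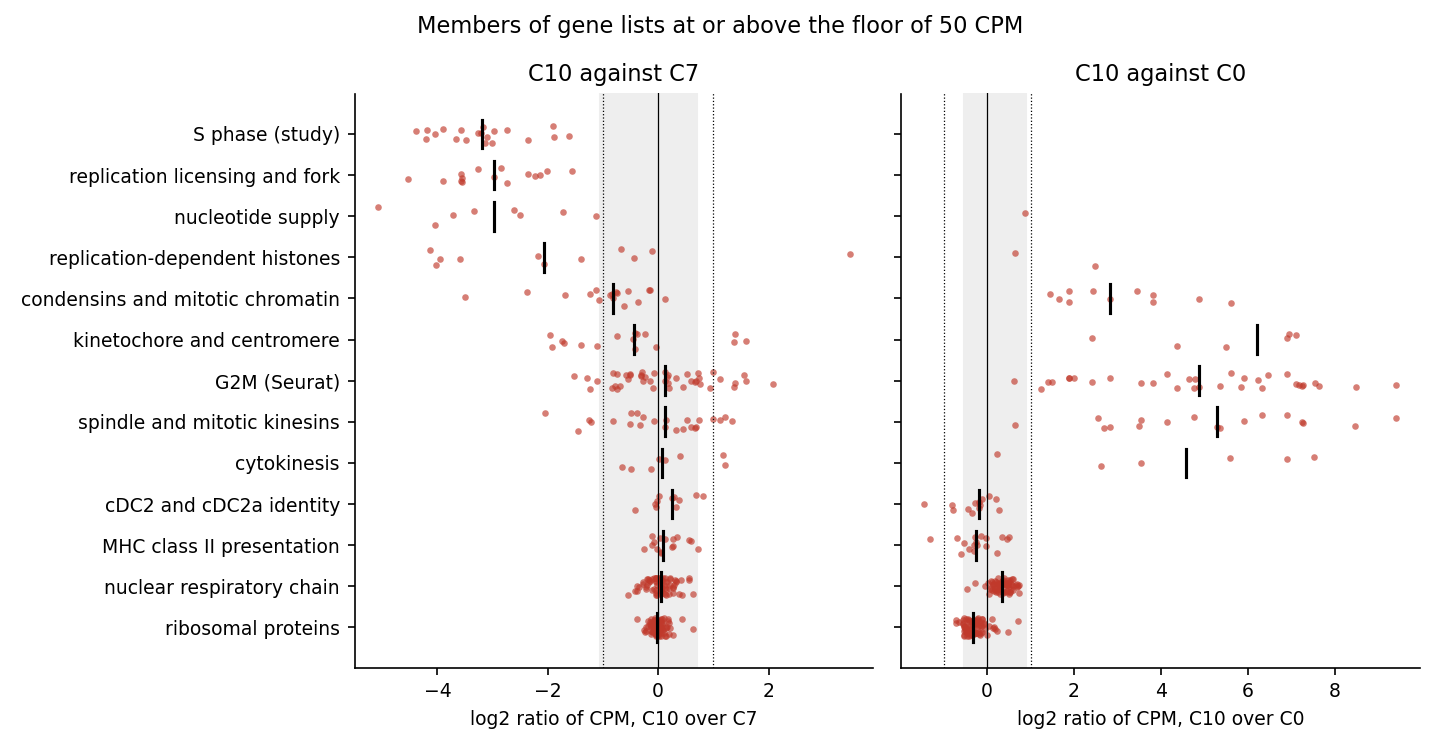
Log2 ratio of CPM (x axis) of C10 over C7 (left) and over C0 (right) for the members of 13 gene lists at or above 50 CPM, 1 point per gene, with black bars at list medians where at least 3 members were at the floor. Grey bands span the 5th to 95th percentile of all genes compared (-1.05 to 0.71 and -0.54 to 0.90) and dotted lines mark 2-fold: the S phase list lies wholly below the band at the left, and the mitotic lists lie mostly above it at the right.

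C10 was then compared with C0. Of 2817 genes 117 were higher in C10 (4.15%) and 16 were lower (0.568%), and 59 of the higher and 2 of the lower genes belonged to the cycle lists. For orientation, C7 had 287 genes higher than C0 (10.2%) and 50 lower (1.78%) among 2812. Of the G2M list 33 genes were at the floor and 32 were higher in C10, with a median log2 ratio of 4.88, against 0.14 over all genes. Counting members with at least 20 UMIs, 53 of the 54 were at least 2-fold higher in each library, against 783 of all 11926 genes. The largest ratio was that of Hmmr, at 231 and 212 CPM in C10 against 0.18 and 0.46 CPM in C0 (log2 ratio 9.42, 8.67 to 10.29), followed by Plk1 (8.79), Cdc20 (8.50), Aspm (8.46) and Ccnb1 (8.22), with Cenpf at 7.12 (6.92 to 7.33).

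Outside the cycle lists, 58 genes were higher in C10 than in C0 and 14 were lower, and those named here are single genes rather than a group. Vim, the intermediate filament vimentin, was at 1010 and 1059 CPM in C10, 732 and 785 CPM in C7 and 131 and 160 CPM in C0 (log2 ratio to C0 2.84). Lgals1, the lectin galectin-1, was at 336 and 285 CPM in C10, 168 and 155 CPM in C7 and 48.0 and 45.1 CPM in C0 (2.71). Crip1, a LIM domain protein, was at 293 and 395 CPM in C10, 396 and 489 CPM in C7 and 54.1 and 68.7 CPM in C0 (2.53). Vim and Lgals1 were highest in C10, and Crip1 in C7. Knstrn, a kinetochore gene that the lists did not hold, had a ratio of 5.72, Lmnb1, lamin B1, of 2.92, and the chromatin gene Nucks1 of 2.63. The glycolytic enzyme gene Gapdh was at 1264 and 1305 CPM in C10 and 517 and 518 CPM in C0 (1.32), while Aldoa was among the lower genes (-1.22), as was Actn1, which encodes the actin-crosslinking protein alpha-actinin (-1.10). Of all 13 glycolysis genes, 10 were above C0 in each library and 3 below, with a median of 0.33. Over all genes 46.1% were above C0 and 31.2% below. The glycolysis list summed to 2662 CPM in C10, 2895 CPM in C7 and 1727 CPM in C0.

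Lyz2, lysozyme, was also among the higher genes, with a log2 ratio of 2.45, but it came from few cells. In the WT library 5 of the C10 cells held 164 of its 205 UMIs, and in the Batf3-/- library 5 held 313 of 404 UMIs. In C0 the 5 highest cells held 7.00% and 5.16%. Without those 5 cells' UMIs the level in C10 was 16.7 CPM in WT and 24.1 CPM in Batf3-/-. C0 without the UMIs of its 5 highest cells was at 17.6 and 16.0 CPM. The 5 cells are a larger part of C10 (243 WT and 346 Batf3-/- cells) than of C0 (3176 and 2961 cells). The clusters were therefore not trimmed to the same extent, and neither these levels nor the UMI shares are like for like. Other monocyte and macrophage markers were above C0 as well. Of the 10 on the list 8 had at least 20 UMIs, of which 7 were above 0 and 6 at least 2-fold higher than in C0 in each library, with a median log2 ratio of 1.72, and Adgre1 was lower (-1.04). Of all genes with at least 20 UMIs 46.1% were above C0 in each library, and 783 of 11926 were at least 2-fold higher. Apart from Lyz2 and Adgre1 the markers were sparse, the highest being C1qa, a complement gene, at 7.32 and 3.18 CPM in C10 (18 and 12 UMIs) and 0.92 and 0.46 CPM in C0. The list summed to 157 and 189 CPM in C10, 299 and 153 CPM in C7 and 122 and 142 CPM in C0, and its part in the differences between the clusters was not tested.

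Among the 16 genes lower in C10 than in C0, Ccnd2, cyclin D2 of G1, stood at 33.0 and 32.1 CPM in C10, 20.3 and 26.9 CPM in C7 and 122 and 98.1 CPM in C0 (log2 ratio -1.76). Egr1, an immediate early transcription factor, was at 105 and 103 CPM in C10, 208 and 195 CPM in C7 and 324 and 294 CPM in C0 (-1.57). Gadd45g, a growth arrest gene, was at 75.7 and 61.0 CPM against 187 and 136 CPM in C0 (-1.27). Of the 19 early response genes 17 were below 0 against C0 in each library and 0 above it, and 2 of the 17 at the floor were called lower, Egr1 and Ier3, with a median of -0.43. Over all genes 31.2% were below C0 in each library.

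Of the cDC2a identity genes, Cd4 was the 1 called lower in C10 than in C0. Cd4 was at 25.6 and 30.8 CPM in C10, 28.8 and 22.2 CPM in C7 and 81.2 and 75.01 CPM in C0, so that both cycling clusters stood below C0 and overlapped each other (C10 over C0 -1.44, -1.67 to -1.23). Of 17 cDC2 and cDC2a identity genes 13 were at the floor against C0, with 1 lower, 0 higher and a median of -0.19. All 17 had at least 20 UMIs, of which 11 were below C0 in each library and 4 above, and the list summed to 4505 CPM in C10 and 5170 CPM in C0. The shares of all genes were 31.2% below and 46.1% above C0. Sirpa, which encodes CD172a, had a log2 ratio of -0.44 to C0 and -0.05 to C7. Dtx1, a Notch pathway gene, was at 264 and 167 CPM in C10 and 261 and 199 CPM in C0. None of the 16 dendritic cell transcription factor genes at the floor against C7, or of the 17 against C0, was called. Of all genes compared, 1.09% were called higher and 4.88% lower against C7, and 4.15% and 0.568% against C0. A count of 0 among so few genes is near those shares. Of all 25 listed factors, 17 were above C7 in each library and 4 below, and 10 were above C0 and 10 below. The shares of all genes against C7 were 46.7% above and 33.8% below. Of the MHC class II genes, 17 were at the floor against C0 with H2-Eb2 the 1 called lower (44.4 and 44.0 CPM against 114.8 and 106 CPM), 13 below 0 and a summed level of 41539 CPM in C10, 41167 CPM in C7 and 50973 CPM in C0.

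Genes of the nuclear-encoded respiratory chain lay above C0 as a group and ribosomal protein genes below it. Of 76 respiratory chain genes 70 were at the floor, 67 of them above 0, with a median log2 ratio of 0.33 and 0 called. Of all 2817 genes 4.15% were called higher and 0.568% lower. Of 96 genes whose symbols begin with Rpl or Rps, which include some kinase genes and pseudogenes, 83 were at the floor and 74 of these were below 0, with a median of -0.34. The median of all 2817 genes was 0.14, between those of the 2 groups. C7 stood close to C10 in both. The respiratory chain genes summed to 21551 CPM in C10, 21050 CPM in C7 and 17752.5 CPM in C0. The ribosomal protein genes summed to 186021, 188374 and 234927 CPM.

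Antibody tags gave a readout that had not been used to form the clusters. The 11 tag rows carried no antibody names, and 4 could be tied to an antibody through the antibody's own gene. The tag counts here are raw, and the study reports a substantial background for each antibody. The CD4 tag had a median of 33 counts per cell in WT C10, 33 in C7 and 38 in C0, and of 34, 35 and 39 in the Batf3-/- library, so that both cycling clusters stood below C0, as they did for Cd4 RNA. In the cDC1 cluster 4 the CD4 tag stood at 27 and 31 and in cluster 2 at 32 and 33, so C10 was close to both. This tag row was named by its match to Cd4 RNA over all cells, so part of that likeness may be set by the naming. As a share of the tags of a cell the CD4 tag made up 6.00%, 6.04% and 7.44% in WT and 6.98%, 7.17% and 8.28% in Batf3-/- cells. The CD11b tag had medians of 50, 49 and 51 in WT and 45, 43 and 45 in Batf3-/- cells, where cluster 2 stood at 76 and 65. The CD172a tag had medians of 35, 37 and 35 in WT and 40, 41 and 41 in Batf3-/- cells. The CD8a tag had medians of 40, 39 and 41 in both libraries, against 122 and 106 in cluster 4, which holds the cDC1. For the CD11b, CD172a and CD8a tags, C10 thus lay within 2 counts of both other clusters in each library. As a share of tags these 3 also stood below C0 in both libraries, CD11b at 9.57% against 9.98% in WT and 9.56% against 9.66% in Batf3-/-, CD172a at 6.27% against 6.90% and 8.45% against 8.88%, and CD8a at 7.32% against 8.08% and 8.24% against 8.78%.

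Per cell, the share of C10 cells with a UMI was compared after each cell had been thinned to 3000 UMIs, which left out 6 of the 589 C10, 35 of the C7 and 129 of the C0 cells. Cdc20 was detected in 47.2% of C10 cells (43.1 to 51.3), 19.8% of C7 cells and 0.316% of C0 cells, the last being the level in resting cells, where the median depth before thinning was 6871 UMIs against 8861 in C10. Ccnb1 was detected in 33.6% (29.8 to 37.6), 15.8% and 0.383%. Unthinned, Cdc20 was seen in 61.0% and Ccnb1 in 52.3% of C10 cells. Top2a turned the order, with 35.7% of C10, 88.0% of C7 and 1.66% of C0 cells. Rrm2 was detected in 3.60% of C10, 66.1% of C7 and 0.583% of C0 cells, and Cd7 in 69.6% of C10, 47.5% of C7 and 59.5% of C0 cells. Within C10, none of the 76 G1 cells had a UMI of Cdc20, Ccnb1 or Top2a after thinning, and unthinned they held 0, 0 and 4 UMIs. Cdc20 and Top2a belong to the list behind the phase call, so their low counts there follow from it.

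C10 was not uniform. Its cells were divided into 4 bins of equal size by the deposited G2M score, which are ranges of a continuous score and not separate types, and 51, 31 and 49 cells lay within 0.05 of the 3 limits. The lowest bin (147 cells) held all 76 G1 and 8 S cells and 63 G2M cells. Ccnb1, which is not in the scoring list, was at 2.50 CPM (3 UMIs), 46.7, 255 and 479.9 CPM from the lowest to the highest bin, and Plk1, also outside it, ran from 1 UMI in the lowest bin to 211 CPM in the highest. Genes of the list, whose order the score sets, ran the same way, Cdc20 from 3.34 to 625 CPM and Top2a from 10.0 to 809 CPM.

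Hist1h2bc and Cd7 had their highest levels at the low end of the score. Hist1h2bc was at 354 CPM (321 to 389) in the lowest bin, then 314, 138 and 27.5 CPM (21.0 to 35.5) in the highest. By library it was at 409, 238, 81.9 and 28.1 CPM in WT and at 330, 381, 169 and 27.1 CPM in Batf3-/- cells, so that the first 2 bins differed in order. Cd7 was at 726, 430, 502 and 375 CPM in WT and at 625, 399.6, 314 and 375 CPM in Batf3-/- cells, highest in the lowest bin of both libraries without an even course after it. The bins held unequal numbers of each library, with 48 WT and 99 Batf3-/- cells in the lowest. Cd9 varied little, at 496, 535, 532 and 556 CPM, and so did Ifi27l2a, at 1100, 954, 1185 and 1077 CPM. Vim was at 780, 909, 1160 and 1178 CPM. The bin with the highest G2M score also had the deepest cells, with median UMIs of 7819, 8104, 8889 and 14914 from lowest to highest, and the part of depth in these levels was not tested. Across the 589 cells the G2M score and UMI count had a Pearson r of 0.49 and a Spearman rho of 0.47, which share the library and the depth that both measures read.

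**Figure D4:**
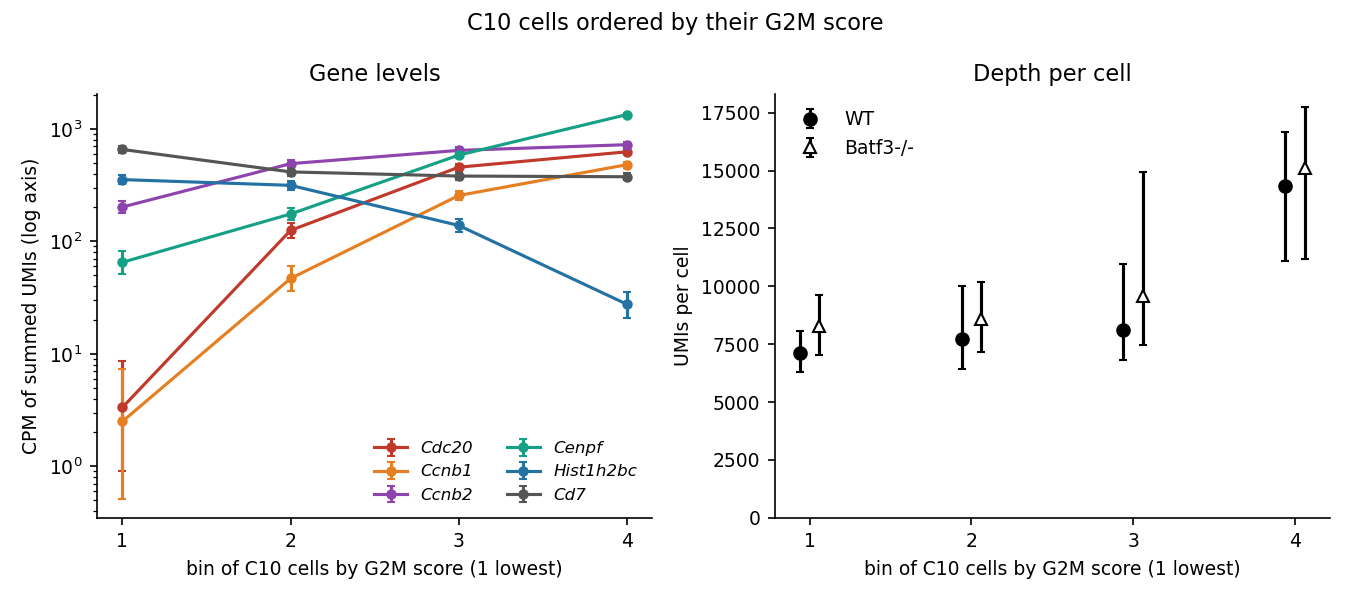
Left, CPM of summed UMIs (y axis, log scale) with 95% counting intervals for 6 genes over the 4 bins of the 589 C10 cells by G2M score (x axis, 1 lowest). Right, median UMIs per cell with quartiles as bars in WT (filled circles) and Batf3-/- cells (open triangles): Hist1h2bc runs from 354 to 27.5 CPM while Ccnb1 runs from 2.50 to 479.9 CPM, and the highest bin is the deepest in both libraries.

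The 76 C10 cells called G1 were set against the 5612 G1 cells of C0. By the same rule 34 of 2739 genes were higher in the C10 cells (1.24%) and 30 lower (1.1%). Ccnb2 was at 119 CPM in the G1 cells of C10 and 2.34 CPM in those of C0 (log2 ratio 5.68, 5.22 to 6.13), and Stmn1, a microtubule destabiliser, at 382 and 19.3 CPM (4.30). Hist1h2bc was at 344 and 31.8 CPM (3.43, 3.22 to 3.64). Cd7 stood at 703 CPM, above the C10 mean. Ccnb2 belongs to the list behind the phase call, and Hist1h2bc does not.

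Genes that the G1 cells of C10 had less of than the G1 cells of C0 included Ccl5, a chemokine gene, at 77.0 and 589 CPM (WT log2 ratio -2.85, Batf3-/- -2.38), and the lectin receptor gene Cd209a at 25.1 and 98.9 CPM. Of the higher genes, 2 were picked after their values had been seen. Hspa5, the endoplasmic reticulum chaperone BiP, was at 855 and 397 CPM (1.11, 0.98 to 1.23), and Manf, a secreted stress-induced protein, at 305 and 101 CPM (1.60). Against the G2M cells of C10, 8 of 2916 genes were higher in its G1 cells (0.274%), Manf among them, and 104 were lower (3.57%). When the comparison with C7 was confined to G2M cells of both clusters, 27 of 2943 genes were higher in C10 (0.917%) and 115 lower (3.91%).

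To place C10 between C7 and C0, genes at least 2-fold apart between them were chosen in 1 library and measured in the other, with 0 for the C7 level and 1 for the C0 level on the log2 scale. In the Batf3-/- library the 360 genes chosen in WT had a median position of 0.50 (quartiles 0.20 to 0.76), and in the WT library the 358 chosen in Batf3-/- one of 0.48 (0.18 to 0.74). Genes outside the cycle lists had medians of 0.57 and 0.52. Genes of the cycle lists had medians of 0.35 (quartiles 0.08 to 0.72) and 0.29 (0.07 to 0.68), a spread that takes in mitotic genes beyond the C7 level and replication genes near that of C0. The G1 cells of C10 lay at 0.77 and 0.76, and its G2M cells at 0.49 and 0.47. For these ratios a gene with 0 UMIs in a group was given 3 UMIs there. In the 52 Batf3-/- and 24 WT G1 cells this puts undetected genes above their measured level. The G1 positions are therefore not those of measured levels alone. Of the genes chosen in WT, 41 lay beyond the C7 level and 33 beyond the C0 level.

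C10 was compared between genotypes by size only. Batf3, the transcription factor deleted in the Batf3-/- mice, was measured with 401 UMIs in WT and 4 in Batf3-/- C10 cells (163 and 1.06 CPM, log2 ratio -7.27, -9.15 to -5.90), and in 184 of 243 and 4 of 346 cells. Of 2955 genes at or above the floor 1 was at least 2-fold higher in Batf3-/- (0.0338%) and 3 were lower (0.102%), Batf3 included. With a floor of 20 CPM, 4 genes were higher and 6 lower. One gene below the main floor, Ifi204, named after its values were seen, was at 2.85 CPM in WT and 44.0 CPM in Batf3-/-. Its log2 ratio was 3.95 (2.87 to 5.29), with 3.01 in C7 and 2.57 in C0. It was detected in 6 of 243 WT and 123 of 346 Batf3-/- C10 cells. Nfkbiz, an NF-kB regulator, was at 76.1 CPM in WT and 33.4 CPM in Batf3-/- (-1.19, -1.53 to -0.85), with ratios of -0.66 in C7 and -0.67 in C0, and its ratio was -0.99 when levels were averaged over cells, short of 2-fold. Ccl4, a chemokine gene, was at 115.1 and 54.6 CPM (-1.08), with 5 cells holding 43.8% of its WT and 39.3% of its Batf3-/- UMIs. Aif1, an actin-binding protein gene, was at 24.4 and 80.6 CPM (1.72, 1.32 to 2.15), with ratios of 0.74 in C7 and 0.69 in C0, and it was not among the genes counted when levels were averaged over cells or when Scrublet calls were left out. The median over all genes was -0.01 (5th to 95th percentile -0.30 to 0.24), and Cenpf, at -0.28 (-0.37 to -0.19), lay within that range, close to its lower end. The G2M list summed to 17815 CPM in WT and 16012 CPM in Batf3-/- C10 cells, a difference that was not tested.

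**Figure D5:**
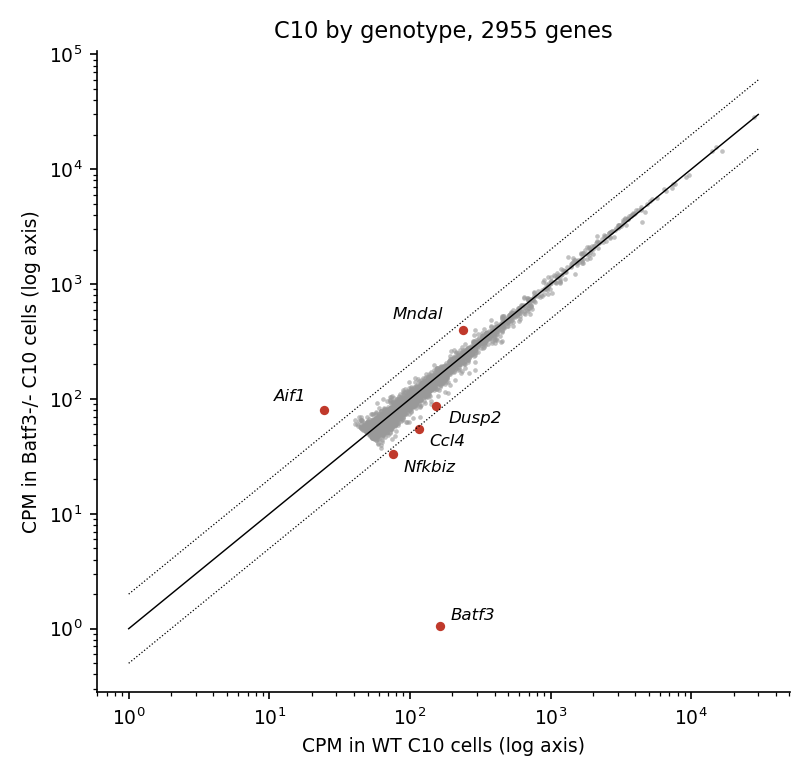
CPM in Batf3-/- C10 cells (y axis, log scale) against CPM in WT C10 cells (x axis, log scale) for 2955 genes, 1 point each, with the line of equality and dotted lines at 2-fold. Batf3 (163 and 1.06 CPM) lies far below the lines, Nfkbiz and Ccl4 just below and Aif1 above them, with 1 library per genotype.

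The share of C10 among all cells differed between the libraries by more than counting error, and so did its share of the cDC2a clusters. Of the cells of the cDC2a clusters (C0, C5, C7, C8 and C10) C10 made up 4.76% in WT (4.19 to 5.38) and 6.60% in Batf3-/- (5.95 to 7.31). Among the G2M cells of those clusters its share was 36.0% (32.2 to 40.0) in WT and 42.9% (39.1 to 46.8) in Batf3-/-, where the intervals overlap, while C7 made up 54.5% and 48.1%. Among the cells of the cycling clusters C5, C7 and C10 its share was 17.3% (15.4 to 19.4) in WT and 19.1% (17.3 to 21.0) in Batf3-/-, where the intervals also overlap. C5 too made up more of all cells in Batf3-/-, at 7.47% against 5.42% in WT. With 1 library of pooled mice per genotype, the genotype, the library and the source of the mice cannot be told apart.

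Markers of other cell types were summed in C10. The 8 T and NK cell genes summed to 2.8 CPM in WT and 4.2 CPM in Batf3-/- C10 cells, with Klrb1a, Klrb1c and Ncr1 at 0. The 8 B and plasma cell genes summed to 83.0 and 86.9 CPM, of which Cd79b gave 64.3 and 70.0 CPM, and Ebf1 and Pax5 were among those at 0. In C7 these B and plasma cell genes summed to 46.9 and 66.6 CPM and in C0 to 53.6 and 69.2 CPM. The neutrophil genes summed to 1.2 and 2.4 CPM, with Ly6g and Retnlg at 0. The pDC genes summed to 273 and 213 CPM, mostly through Tcf4 and Bst2, against 333 and 212 CPM in C7 and 191 and 184 CPM in C0. The cDC1 genes summed to 415 and 296 CPM, mostly through Wdfy4, and of the defining ones Xcr1 was at 5.70 and 4.24 CPM and Clec9a at 5.29 and 3.18 CPM. In C7 the cDC1 genes summed to 387 and 289 CPM and in C0 to 469 and 356 CPM. The 8 cDC2b genes summed to 147 and 185 CPM in C10, 175 and 192 CPM in C7 and 165 and 149 CPM in C0. Of 7 with at least 20 UMIs, 4 were above C0 in each library, 2 of them at least 2-fold, and 2 below. Of all genes 46.1% were above C0, and 783 of 11926 were at least 2-fold higher.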

How the data were processed

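CITE-seq libraries of sorted splenic dendritic cells, 1 WT and 1 Batf3-/-, were demultiplexed with bcl2fastq 2.2.0 and counted with Cell Ranger, and clustered with Seurat 3.0.5, per the labels' processing notes and the study's methods. The authors deposited raw UMI counts for RNA and tags, and per-cell metadata holding clusters, phases, S and G2M scores, the fraction of mitochondrial and ribosomal UMIs (printed as percent) and SingleR labels. The deposited tables of normalized values were not used. Clusters, phases and the filters on cells are the authors' own.

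Here the raw counts were summed per cluster and library and divided by the total (CPM). Genes whose level averaged 50 CPM or more over the groups compared, with 20 UMIs or more, were compared by log2 ratio, called at 2-fold in each library, or at 2-fold between genotypes. Ratios carry 95% intervals from the exact binomial split of UMIs, levels exact Poisson and shares exact Clopper-Pearson intervals. These cover counting error only, and PCR is accounted for by UMIs. There was no test, since each genotype had 1 library. Shares of cells with a UMI used cells thinned to 3000 UMIs. Scrublet was run in scanpy 1.11.5 with an expected rate of 10%, a value chosen in earlier work after its calls had been seen, and its calls were left in.

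Tag rows were named where the tag and the antibody's own gene were each other's best match by Pearson r of log counts. The XCR1 match was also the best for Cd24a, so that both antibodies were left unnamed, a departure from the planned rule. Promoters were the first listed RefSeq window of each symbol (300 bases, 27025 symbols, 4163 of which had more windows).

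Named genes were Cd7, Cenpf and Batf3, the 10 highest and 10 lowest ratios to C7 and to C0 with 1 direction in each library, the 10 highest to C0 outside the cycle lists, the 5 highest and lowest between genotypes, members of 37 gene lists, and others said to be chosen after their values were seen, with 2 further lists. Further genes named from the 32, 117 and 16 called genes, and from the G1 cells of C10, were also chosen after their values were seen. The members, lists and comparisons were all chosen with earlier results of these data known. Python 3.11.15, numpy 2.4.6, scipy 1.17.1, pandas 2.3.3 and matplotlib 3.10.9 were used, and the ratio calls were tested on simulated data.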

Additional observations from a re-analysis of the deposited data

Results flagged for a closer look

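A few genes stood on opposite sides of 0 in the 2 libraries, with counting intervals that left out 0 in both. None of these differences was tested, since each genotype had 1 library. Against C7, Lyz2 had a log2 ratio in C10 of -1.36 in WT and 0.27 in Batf3-/-, where 5 cells held 80.4% of the 1408 Lyz2 UMIs of the WT C7 cells. Aif1 had one of -0.71 in WT and 0.27 in Batf3-/-, and H2-Ab1, an MHC class II chain, of 0.03 and -0.04, a small difference at a high UMI count. Against C0, Dusp2, a phosphatase gene of the MAP kinase pathway, had a log2 ratio of 0.32 in WT and -0.22 in Batf3-/-. The interferon-induced genes Isg15 (-0.31 and 0.29) and Irf7 (-0.35 and 0.31) were lower than in C0 in WT and higher in Batf3-/-.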

How the results depend on the processing

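Some list medians near 0 turned, and so did Lyz2, Aif1 and H2-Ab1 to C7 and Dusp2, Isg15 and Irf7 to C0 between the single libraries, with the values given above. The counts of genes moved mainly with the floor: at 20 CPM, 71 genes were higher and 318 lower in C10 than in C7, 248 higher and 33 lower than in C0, and 10 apart between genotypes, and with no floor but at least 20 UMIs the numbers were 302 and 748 against C7 and 783 and 227 against C0. In the WT library alone 25 genes were lower than in C0. With levels averaged over cells, 2 genes (Batf3 and Ccl4) were apart between genotypes, and 24 of 34 higher and 139 of 157 lower genes against C7 were shared with the summed levels. C10 made up 4.76% of the WT and 6.60% of the Batf3-/- cells of the cDC2a clusters, another denominator than all cells. The position of genes chosen in WT was 0.57 outside the cycle lists. Detection of Ccnb1 was 17.9% at 1000 UMIs and 52.3% unthinned, and that of Cdc20 23.7% and 61.0%. The other 38 main values, and 499 of 568 values of single genes and lists, moved by less than their counting interval, or for counts by less than 1.5 times. Leaving out the cells whose barcode occurs in both libraries, chosen after seeing the data, gave 32 and 145 genes against C7, 117 and 17 against C0 and 4 between genotypes. The median log2 ratios of the G2M, mitotic entry, spindle, cytokinesis, G1 to S and mitochondrial lists to C7 turned from 0.12, 0.19, 0.13, 0.07, 0.12 and 0.04 to -0.10, -0.07, -0.12, -0.01, -0.41 and -0.05 with levels averaged over cells, and that of the ribosomal genes from -0.02 to 0.04. With totals that left out the cycle lists the mitotic entry and G1 to S medians were -0.12 and -0.38, without Scrublet calls the mitotic entry median was -0.12, and over all its members it was -0.37. The G1 to S median depended most on the floor. Over the 19 G1 to S members with at least 20 UMIs it was -1.75, with 15 below C7 in each library, 10 of these at least 2-fold, and 3 above. The cause was not tested. No paired analysis was possible because each genotype has 1 library.

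In a cluster of 589 cells, genes below 50 CPM rest on fewer UMIs than those above it. Close to that floor the counts are still not small, as for Adgrl3 at 49.0 CPM in C10 with 305 UMIs. The 76 G1 cells of C10 hold the fewest, so values there are the least certain. Depth differed between the clusters and between the score bins of C10, and the part it plays in the levels was not tested.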
